A study of Mus musculus with 8 samples.

Results

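The T cell lineage genes described here are 10 genes, of 20696 in all that the deposited count tables list, picked by symbol: the CD3 chains Cd3e, Cd3d and Cd3g, the CD8 chains Cd8a and Cd8b1, the surface receptor Cd2, the kinase Lck, and the transcription factors Bcl11b, Tcf7 and Gata3. All 10 are among the 18904 genes of the multipotent progenitor (MPP) table, and 7 are among the 19685 genes of the long-term hematopoietic stem cell (LT-HSC) table. Cd3d, Cd3e and Tcf7 were not analysed here in LT-HSC.

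Poly(A) RNA of flow-sorted mouse bone marrow cells was sequenced in 8 libraries, 2 in each of 4 groups: LT-HSC with Tet1 knocked out (KO), wild-type (WT) LT-HSC, Tet1 KO MPP and WT MPP. Tet1 is an enzyme that oxidises 5-methylcytosine in DNA. Every library came from bone marrow of animals given as 6 months old, of the strain spelled CD57BL/6 in the labels, taken 20 weeks after a transplant of Tet1 KO or WT marrow, so the groups of both genotypes had been transplanted. RNA came from 10000 cells per LT-HSC library and 100000 per MPP library. The labels used here name neither the deleted stretch of Tet1, the sort gates, the conditioning of the hosts nor the share of host cells left. Nothing in them says that the 2 libraries of a group came from separate animals, and the spread that p-values are based on is that between these libraries, which may be technical.

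T cells arise from marrow progenitors that seed the thymus, where Notch signals switch on Tcf7 and Gata3, and Bcl11b then locks in the T cell fate. The T cell receptor signals through the CD3 chains, which Lck, a kinase that binds CD4 and CD8, phosphorylates. Stem cells and MPP are not T cells, and CD3 and CD8 chains are markers of T cells that are usually gated out of such sorts.

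Total counts were 5356505 and 5059917 in LT-HSC KO, 5479731 and 4976459 in LT-HSC WT, 12504581 and 12400764 in MPP KO, and 11928659 and 12030265 in MPP WT. A floor of 3 counts was 0.548 to 0.603 counts-per-million units (CPM) in the LT-HSC libraries and 0.240 to 0.252 CPM in the MPP libraries; floors and intervals cover counting error only. Set against MPP WT, LT-HSC WT had 6 of 8 tested LT-HSC markers higher and 4 of 4 MPP markers lower. Tet1, the targeted gene, had 765 and 855 counts in MPP KO, against 1207 and 1323 in MPP WT, or -0.62 as a log2 fold change (SE 0.09, adjusted p = 0.0282, edgeR's quasi-likelihood test). It had 336 and 379 counts in the LT-HSC KO libraries, against 332 and 428 in LT-HSC WT, and did not pass (log2 fold change -0.09, SE 0.19, adjusted p = 0.765), so the LT-HSC labels have no check from Tet1 RNA. All 4 Y-linked genes tested were lower in KO in both populations, so the sex of the cells cannot be told apart from genotype. In LT-HSC KO, genes not expected in blood were also high: over 37 such genes the median was 0.407 and 0.349 counts per kb of gene span in LT-HSC KO, against 0.0427 and 0.0424 in LT-HSC WT. In MPP, where 36 of them are listed, it was 0.0414 and 0.0454 in MPP KO, against 0.0363 and 0.0425 in MPP WT.

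In the main analysis Cd3g, both CD8 chains and Cd2 were called higher in MPP KO than in MPP WT. Of the 10 genes, 9 passed the filter on low counts; Cd3g, Cd8a, Cd8b1 and Cd2 were higher in KO at an adjusted p under 0.05, none was lower, and 5 did not pass. Over all 14902 genes tested 7.2% were called in either direction, 4.74% higher and 2.46% lower (707 and 366 genes; with scaling to library size only, 609 and 643). The 9 genes tested had a median log2 fold change of 1.52, against -0.00822 over all genes tested. Genes this low pass the filter more easily when they are high in a group, so this median describes them and supports no call. Cd3g, Cd8a and Cd8b1 themselves reached the filter through their counts in KO. Without the filter edgeR called only Cd3g among the 10 genes. Both KO libraries lay above both WT libraries in CPM for 9 of the 10 genes, and for 21.2% of all genes listed. In sorted bulk RNA, more cells of a type and more RNA per cell cannot be told apart.

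The CD3 chains are the signalling subunits of the T cell receptor. Cd3g had 24 and 23 counts in MPP KO, against 3 and 2 in MPP WT, which is 1.89 ± 0.0457 CPM in MPP KO and 0.209 ± 0.0603 CPM in MPP WT (SD, n = 2 each). Both MPP KO libraries lay above both MPP WT libraries, and the log2 fold change was 3.19 (SE 0.41, adjusted p = 0.0198, edgeR's quasi-likelihood test with Benjamini-Hochberg adjustment, as for every adjusted p here). Cd3e had 23 and 20 counts in MPP KO, against 7 and 8 in MPP WT. The MPP KO libraries of Cd3e were again the higher ones, but its log2 fold change of 1.52 (SE 0.34) did not pass (adjusted p = 0.0628). Cd3d had 12 and 15 counts in MPP KO, against 4 and 2 in MPP WT, and its log2 fold change of 2.15 (SE 0.50) did not pass either (adjusted p = 0.0702). The 3 genes lie side by side on chromosome 9 of mm9, with Cd3g at chr9:44777655-44788514 on the minus strand, Cd3d at chr9:44789876-44795135 on the plus strand and Cd3e at chr9:44806826-44817673 on the minus strand. The gap between Cd3g and Cd3d is 1361 bases and that between Cd3d and Cd3e is 11690 bases.

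CD8 is the co-receptor of cytotoxic T cells, built from an alpha chain (Cd8a) and a beta chain (Cd8b1), and it binds MHC class I. Cd8a had 12 and 11 counts in MPP KO, against 0 and 0 in MPP WT. It was therefore at least 7.78-fold higher in MPP KO when 3 counts are taken for the MPP WT group, and it passed the test (adjusted p = 0.0359, edgeR). Cd8b1 had 36 and 19 counts in MPP KO, against 3 and 4 in MPP WT, or 2.21 ± 0.952 CPM in MPP KO and 0.292 ± 0.0573 CPM in MPP WT (SD, n = 2 each). The MPP KO libraries of Cd8b1 differed from each other more than the MPP WT libraries did, yet both lay above, with 2.95 as a log2 fold change (SE 0.52, adjusted p = 0.0403, edgeR). Cd8b1 at chr6:71272830-71287471 and Cd8a at chr6:71323421-71329165 (mm9, both on the plus strand) are 35949 bases apart. Cd4, the co-receptor of helper T cells, had 94 and 95 counts in MPP KO, against 75 and 79 in MPP WT, and did not pass (log2 fold change 0.32, SE 0.14, adjusted p = 0.242).

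**Figure D1:**
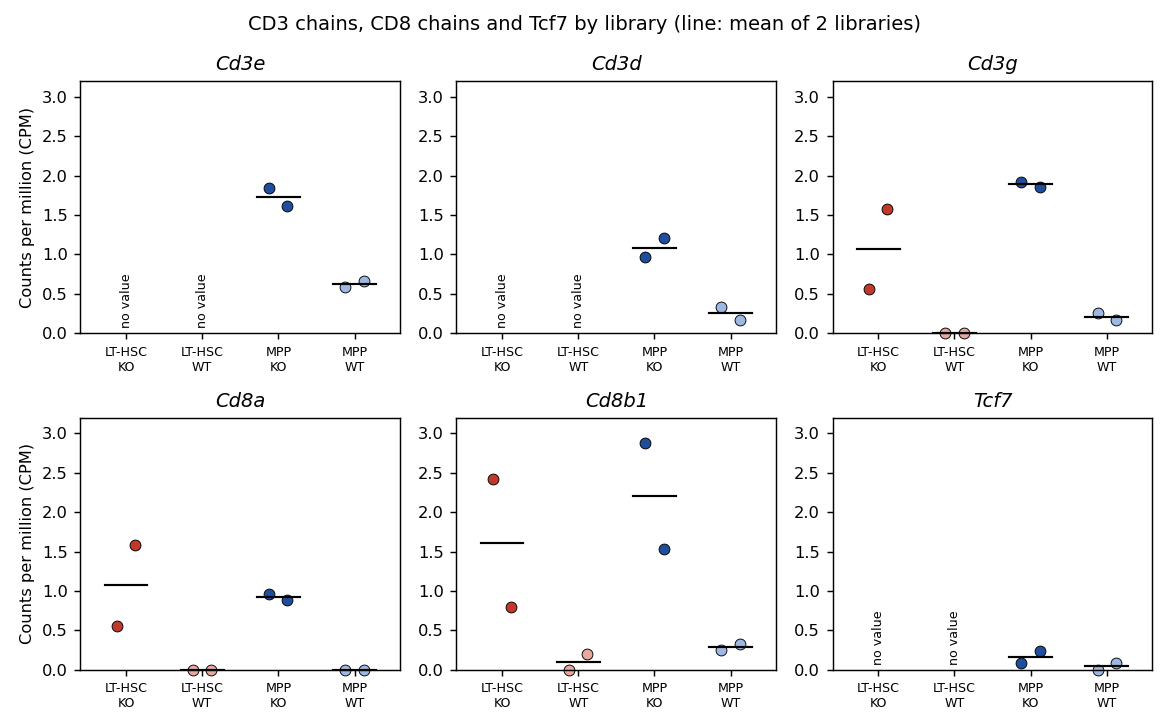
Counts-per-million (CPM, vertical axis) of the CD3 chains, the CD8 chains and Tcf7 in each library of the 4 groups; points are libraries and lines the mean of 2 libraries. For every gene but Tcf7 both MPP KO points lie above both MPP WT points, and Cd8a is at 0 in all 4 WT libraries; "no value" marks genes not analysed here in LT-HSC.

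The promoter letters of the antigen receptor and co-receptor genes that matched are shown because Tet1 acts at CpG dinucleotides, and that of Gata3 as a transcription factor gene with many CpG; DNA methylation was not measured in these libraries. The windows run from 250 bases before to 50 after the start of the gene, from RefSeq on GRCm38.p6, a different build from the mm9 of the counts; 8 of the 10 genes matched, with 10 windows. CpG dinucleotides are in capitals.
Cd3g (chr9:44980382-44980681, minus strand): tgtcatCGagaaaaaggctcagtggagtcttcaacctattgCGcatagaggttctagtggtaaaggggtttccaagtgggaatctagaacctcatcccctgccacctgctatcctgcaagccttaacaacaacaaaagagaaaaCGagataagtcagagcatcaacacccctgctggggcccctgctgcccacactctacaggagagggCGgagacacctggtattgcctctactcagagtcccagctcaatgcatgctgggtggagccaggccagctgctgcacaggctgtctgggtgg
Cd3d (chr9:44981536-44981835, plus strand): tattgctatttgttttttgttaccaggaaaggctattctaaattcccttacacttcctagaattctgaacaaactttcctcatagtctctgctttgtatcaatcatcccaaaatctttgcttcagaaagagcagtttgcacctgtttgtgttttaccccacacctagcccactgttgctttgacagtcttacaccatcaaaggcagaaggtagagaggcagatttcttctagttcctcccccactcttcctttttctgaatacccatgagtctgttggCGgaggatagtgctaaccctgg
Cd3e (chr9:45009562-45009861, minus strand): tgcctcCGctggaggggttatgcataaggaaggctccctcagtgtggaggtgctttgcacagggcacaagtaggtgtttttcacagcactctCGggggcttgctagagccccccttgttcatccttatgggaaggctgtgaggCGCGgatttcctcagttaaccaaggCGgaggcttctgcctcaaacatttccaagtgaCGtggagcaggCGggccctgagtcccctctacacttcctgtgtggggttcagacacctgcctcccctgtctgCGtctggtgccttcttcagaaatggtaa
Cd8a (chr6:71373177-71373476, plus strand): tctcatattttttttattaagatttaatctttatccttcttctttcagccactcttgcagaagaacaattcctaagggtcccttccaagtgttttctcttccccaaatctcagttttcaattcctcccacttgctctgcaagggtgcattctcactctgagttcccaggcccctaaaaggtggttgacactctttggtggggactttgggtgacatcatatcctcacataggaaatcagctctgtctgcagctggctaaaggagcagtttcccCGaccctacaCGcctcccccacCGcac
Gata3 (chr2:9878551-9878850, minus strand): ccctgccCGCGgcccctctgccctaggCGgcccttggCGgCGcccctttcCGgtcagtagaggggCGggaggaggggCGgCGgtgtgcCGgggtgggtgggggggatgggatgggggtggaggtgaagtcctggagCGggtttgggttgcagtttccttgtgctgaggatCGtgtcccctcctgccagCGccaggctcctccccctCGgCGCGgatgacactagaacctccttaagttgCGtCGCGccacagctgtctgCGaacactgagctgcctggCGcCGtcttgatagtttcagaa

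The window of Cd3d held 1 CpG, that of Cd8a 3, that of Cd3g 4 and that of Cd3e 8, while that of Gata3 held 22. Of the windows not shown, that of Bcl11b held 9 CpG, those of Lck 5 and 7, and those of Tcf7 17 and 45. Over the 32851 mouse windows of the same length the median was 7 CpG, with quartiles of 3 and 20. The CD3 and CD8 windows shown thus lie from below the lower quartile to just above the median, and that of Gata3 lies above the upper quartile. Short motifs were searched on both strands in the 10 windows, and none contains another. The Runx letters TGTGGT were in 1 of the 10 windows (one of the pair for Lck) and in 16.8% of all windows, the Gata letters AGATAA in 1 (Cd3g) and in 11.2%, the Tcf/Lef letters CTTTGA in 2 (Cd3d and Bcl11b) and in 16% of all windows. The E protein letters CAGGTG were in 6 of the 10 windows, the 3 CD3 genes included, and in 20.2% of all windows. A match is a description of these letters and not a measured binding site.

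Cd2, an adhesion receptor of lymphocytes that binds CD48 in the mouse, was well covered in both MPP groups. It had 321 and 313 counts in MPP KO, against 202 and 224 in MPP WT, or 25.5 ± 0.304 CPM in MPP KO and 17.8 ± 1.19 CPM in MPP WT (SD, n = 2 each). The groups did not overlap, and the rise was small, with 0.59 as a log2 fold change (SE 0.10, adjusted p = 0.0374, edgeR). Lck, the kinase that starts T cell receptor signalling, had 452 and 438 counts in MPP KO, against 403 and 364 in MPP WT. Its KO libraries were the higher ones, but the log2 fold change of 0.24 (SE 0.09) did not pass (adjusted p = 0.189).

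Among the transcription factors no call was made in MPP in the main analysis. Bcl11b, needed for commitment to the T lineage, had 31 and 34 counts in MPP KO, against 9 and 16 in MPP WT, with 1.39 as a log2 fold change (SE 0.36, adjusted p = 0.0858, edgeR). Gata3, which acts in T cell and innate lymphoid development, had 179 and 195 counts in MPP KO, against 160 and 145 in MPP WT, with 0.32 as a log2 fold change (SE 0.13, adjusted p = 0.194). Both genes had the 2 MPP KO libraries on top, without passing the test. Tcf7, which encodes TCF-1, had 1 and 3 counts in MPP KO, against 0 and 1 in MPP WT; the libraries overlapped, the ratio of 4.06 had a 95% interval of 0.402 to 199.9, and it was too low to be tested. Its row overlaps that of A630014C17Rik on the opposite strand and that of Gm16953 on the same strand, so its few reads are uncertain.

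Leaving out any 1 MPP library gave log2 fold changes between 2.94 and 3.49 for Cd3g, 2.43 and 3.33 for Cd8b1, and 0.51 and 0.67 for Cd2. None of the 10 genes passed in these smaller fits, at adjusted p of 0.0833 to 0.300 for Cd3g, 0.0594 to 0.341 for Cd8b1 and 0.140 to 0.328 for Cd2, and of 0.282 to 0.304 for Cd8a in the 2 fits that tested it, while 6 or 7 genes were higher in KO at an unadjusted p under 0.05. Calls over the whole table fell as well: without either MPP WT library 0 genes passed (edgeR), with 2119 and 2220 at an unadjusted p under 0.05. DESeq2 called 2 of the 10 genes, Cd3g and Cd8b1, and without the low-count filter edgeR called Cd3g alone, with Cd8a at an adjusted p of 0.0601, Cd8b1 at 0.0699 and Cd2 at 0.0581.

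Other genes of the T cell programme moved in part. Of 20 tested T cell receptor signalling genes, 4 rose and none fell in MPP KO (median log2 fold change 0.40). Among 12 other T cell surface genes 1 rose and 3 fell (0.18). Of 18 Notch and early T specification genes 2 rose and none fell (0.17). Over all genes tested in MPP, 4.74% rose and 2.46% fell, and the lists were not tested against these shares. Lef1, a partner of TCF-1, had 350 and 320 counts in MPP KO, against 145 and 139 in MPP WT, or 1.26 as a log2 fold change (SE 0.11, adjusted p = 0.00744, edgeR). Both MPP KO libraries lay well above both MPP WT libraries. Themis, needed for thymocyte selection, rose with a log2 fold change of 2.28 (20 and 24 counts in MPP KO, against 3 and 6 in MPP WT), although the background density over its long span would give 18.7 counts in MPP KO and 17.0 in MPP WT. The phosphatase Ptpn22 rose by 0.42 on the log2 scale. Il7r, the receptor for the lymphoid cytokine IL-7, had 573 and 673 counts in MPP KO, against 290 and 299 in MPP WT, and rose by 1.102 on the log2 scale (SE 0.11, adjusted p = 0.0116, edgeR). Ctla4, an inhibitory receptor of T cells, rose by 1.01. Against these, Thy1, a surface glycoprotein of T cells and stem cells, had 337 and 290 counts in MPP KO, against 571 and 502 in MPP WT, and fell by 0.75 (SE 0.12, adjusted p = 0.0290). Cd96, a receptor of T and NK cells, fell by 0.76 and Ccr7, a chemokine receptor of lymphocytes, fell by 0.53 on the log2 scale.

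The antigen receptor itself gave a mixed picture. Trac, the constant region of the alpha chain, had 35 and 22 counts in MPP KO, against 4 and 2 in MPP WT, or 3.21 as a log2 fold change (SE 0.50, adjusted p = 0.0301, edgeR). Trbc1 and Trbc2, constant regions of the beta chain, did not pass: Trbc1 had 17 and 11 counts in MPP KO, against 14 and 12 in MPP WT, and Trbc2 had 21 and 15 in MPP KO, against 16 and 4 in MPP WT. The 2 beta genes are nearly identical, so reads may be split between them, and the libraries of both overlapped between genotypes. Zap70, the kinase that binds phosphorylated CD3, had 33 and 47 counts in MPP KO, against 9 and 14 in MPP WT, with a log2 fold change of 1.81 that narrowly failed (SE 0.37, adjusted p = 0.0532). Cd247, the zeta chain of the receptor complex, had 76 and 100 counts in MPP KO, against 72 and 88 in MPP WT, and did not pass (log2 fold change 0.16, SE 0.21, adjusted p = 0.697).

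**Figure D2:**
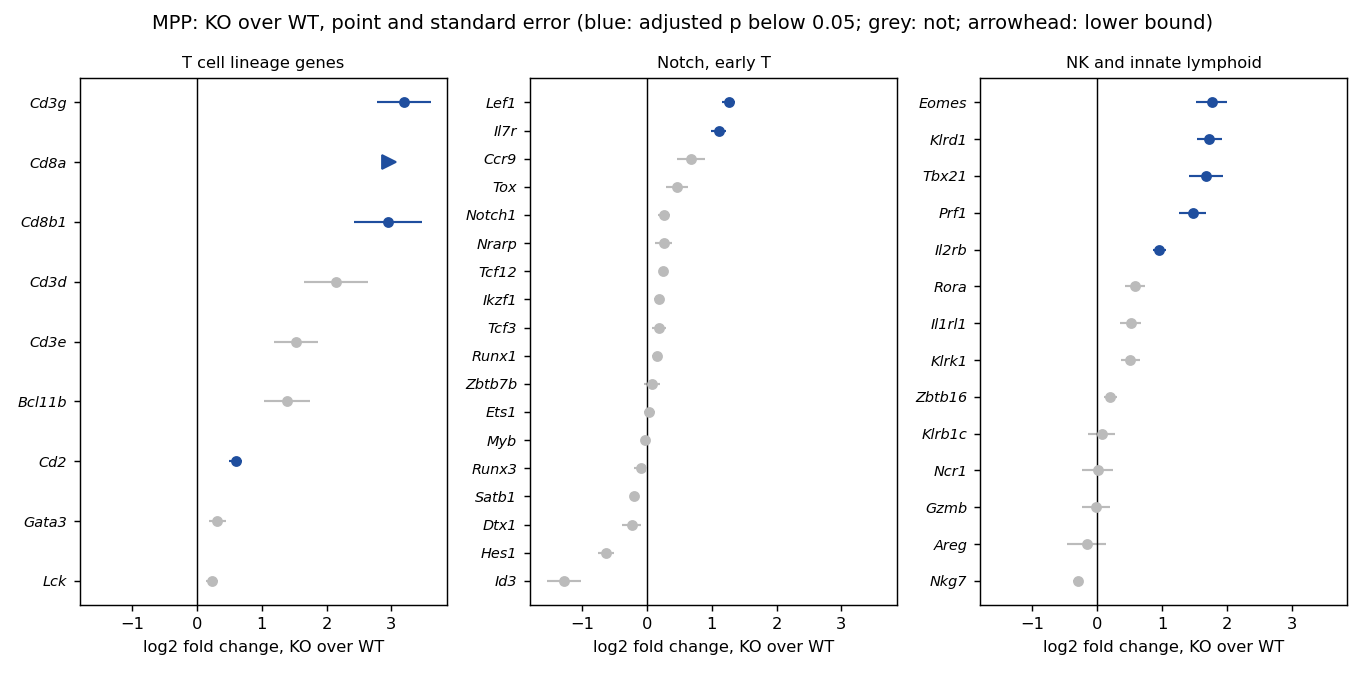
Log2 fold change of MPP KO over MPP WT (horizontal axis) for the tested T cell lineage genes, the Notch and early T specification genes and the NK and innate lymphoid genes; points carry the standard error, blue marks an adjusted p under 0.05, grey the rest, and the arrowhead the lower bound of Cd8a. The CD3 genes and Cd8b1 lie between 1.52 and 3.19, Cd8a is known only to lie above its arrowhead, and Lck (0.24) and Gata3 (0.32) lie near 0.

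Markers of other blood cells moved with these genes in MPP. Of 14 NK and innate lymphoid genes tested, 5 rose and none fell, among them Eomes (log2 fold change 1.77) and Tbx21 (1.68), T-box factors of NK and effector T cells, Klrd1 (1.73), an NK receptor chain, and Prf1 (1.47), the pore protein of cytotoxic cells. The summed level of that list was 257 to 268 CPM in MPP KO, against 230 to 247 CPM in MPP WT, and none of its genes was at 0 in either group. B cell genes rose in 3 of 10 (566 to 576 CPM summed in MPP KO, against 469 to 482 in MPP WT) and erythroid genes in 5 of 9 (649 to 787 CPM summed in MPP KO, against 391.9 to 494 in MPP WT). Over all genes tested in MPP, 4.74% rose and 2.46% fell. The part of any such cells in the T cell lineage result was not tested. The background density of genes not expected in blood would give 0.943 of the 47 Cd3g counts, 0.499 of the 23 Cd8a counts and 1.27 of the 55 Cd8b1 counts of MPP KO. That density is a median over genes that vary widely. In MPP KO, Sntg1 of that list had 1728 counts where the density gives 81.5, and Ctnna2 had 35 where it gives 95.3. The density therefore sets no upper limit on the background of a single gene. With that background subtracted from every library the same 4 genes were called. Adjusted p (edgeR) was 0.0217 for Cd3g, 0.0400 for Cd8a, 0.0368 for Cd8b1 and 0.0349 for Cd2. In MPP the subtraction, rounded to whole counts, left Cd3g and Cd8a as they were and took almost nothing from Cd8b1 and Cd2. These repeat calls are therefore no further support.

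In LT-HSC KO, most counts of Bcl11b, Cd3g and Cd8b1 were within what the background density gives. Most counts of Cd2, Gata3 and Lck were beyond it, as were those of Cd8a, which had only 11 counts. Of the 7 genes listed, 4 passed the low-count filter: Bcl11b and Cd2 were higher in KO, none was lower, and Gata3 and Lck did not pass. Their median log2 fold change was 1.24, against 0.0266 over all genes tested; Bcl11b and Cd2 reached the filter through their counts in KO, so this median supports no call. The share of all 15684 tested genes called was 33.4%, with 22.5% higher and 10.9% lower. Both KO libraries lay above both WT libraries in CPM for 5 of the 7 genes, below for Gata3, and Lck overlapped. Over all 19685 genes listed, 40.7% lay above and 26% below in this way. The 5 of 7 was not tested against that share and is not read as a feature of these genes.

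Cd2 had 13 and 32 counts in the LT-HSC KO libraries, against 1 and 0 in LT-HSC WT. The ratio of normalized counts was 45.1, with a 95% interval of 7.69 to 1820, and it passed (adjusted p = 0.00497, edgeR). The background density would give 9.11 of the 45 counts of LT-HSC KO over the span of Cd2. Bcl11b had 53 and 44 counts in the LT-HSC KO libraries, against 2 and 12 in LT-HSC WT, or 2.77 as a log2 fold change (SE 0.64, adjusted p = 0.0110). Its 2 WT libraries were far apart, and leaving out 1 library moved the log2 fold change to between 1.97 and 4.49. Without KO replicate 1 the call was lost (adjusted p = 0.0781, with 8.68e-07 to 0.297 over all alternatives). Background would give 70.5 of the 97 counts of LT-HSC KO and 7.92 of the 14 counts of LT-HSC WT over its span of 93.2 kb. With the background subtracted 3 of the genes were tested and 0 were called, also at an unadjusted p under 0.05; Bcl11b had 1.87 as a log2 fold change (SE 1.11, adjusted p = 0.297) and Cd2 fell below the count filter.

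Cd3g had 3 and 8 counts in the LT-HSC KO libraries and Cd8a likewise 3 and 8, against 0 and 0 in LT-HSC WT for both. Each was at least 3.67-fold higher in LT-HSC KO against 3 counts over the LT-HSC WT group, and both were too low for the test. The background would give 8.21 of the 11 Cd3g counts and 4.35 of the 11 Cd8a counts of LT-HSC KO. Cd8b1 had 13 and 4 counts in the LT-HSC KO libraries, against 0 and 1 in LT-HSC WT, a ratio of 17.0 with a 95% interval of 2.67 to 712, and background would give 11.1 of its 17 counts in LT-HSC KO. Most reads of Cd3g and Cd8b1 in LT-HSC KO are thus within the number that the background density gives. Without the low-count filter all 3 were at an unadjusted p under 0.05 but none passed, at an adjusted p of 0.0604 for Cd3g and for Cd8a and 0.0719 for Cd8b1 (edgeR).

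Gata3 had 105 and 118 counts in the LT-HSC KO libraries, against 153 and 151 in LT-HSC WT. Both KO libraries were the lower ones, but the log2 fold change of -0.44 (SE 0.22) did not pass (adjusted p = 0.168, edgeR). Lck had 80 and 43 counts in the LT-HSC KO libraries, against 87 and 63 in LT-HSC WT, and overlapped between the genotypes (log2 fold change -0.28, SE 0.37, adjusted p = 0.599). Background would give 24.9 of the 223 Gata3 counts and 19.1 of the 123 Lck counts of LT-HSC KO, so these 2 genes were measured mostly above it.

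**Figure D3:**
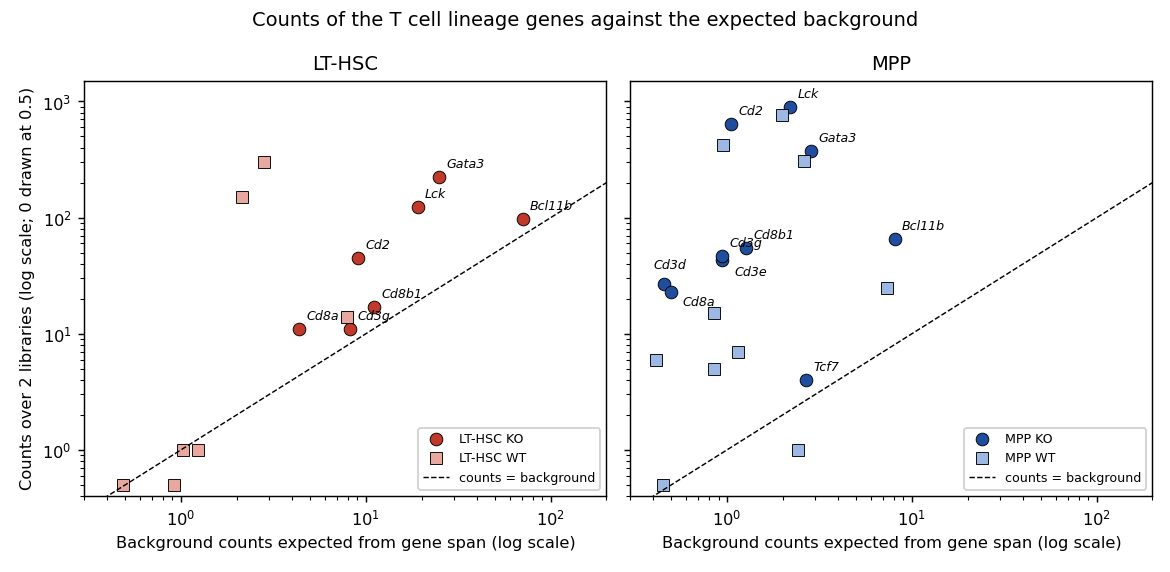
Counts over the 2 libraries of a group (vertical axis, log scale, 0 drawn at 0.5) against the counts that the background density would give over the span of the gene (horizontal axis, log scale); circles are KO, squares WT, and the dashed line marks equality. In LT-HSC KO Bcl11b, Cd3g and Cd8b1 lie close to the line, while in MPP KO every gene but Tcf7 lies well above it.

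Other T lineage genes in LT-HSC KO moved both ways. Of 18 tested T cell receptor signalling genes 7 rose and 4 fell (median log2 fold change 0.13). Of 9 other surface genes 2 rose and 2 fell (-0.25), and of 18 Notch and early T specification genes 5 rose and 6 fell (-0.02). Over all genes tested in LT-HSC, 22.5% rose and 10.9% fell, and the lists were not tested against these shares. Rasgrp1, an activator of Ras behind the T cell receptor, had 61 and 42 counts in the LT-HSC KO libraries, against 2 and 1 in LT-HSC WT, a ratio of 34.4 with a 95% interval of 11.4 to 170 (adjusted p = 0.000977, edgeR). Background would give 47.7 of its 103 counts in LT-HSC KO and 5.36 counts in LT-HSC WT, where it had only 3. Rasgrp1 was still called with the background subtracted (adjusted p = 0.0158, edgeR). That subtraction left both LT-HSC WT libraries at 0, so the repeat call is no further support. Dtx1, a ubiquitin ligase that Notch induces, had 24 and 38 counts in the LT-HSC KO libraries, against 1 and 0 in LT-HSC WT, a ratio of 62.1 with a 95% interval of 10.7 to 2492. Lef1 had 79 counts over the LT-HSC KO libraries, against 3 over the LT-HSC WT libraries, a ratio of 26.4 with a 95% interval of 8.70 to 131, and background would give 86.1 counts in LT-HSC KO. Id3, an inhibitor of E proteins, had 15 and 18 counts in the LT-HSC KO libraries, against 99 and 108 in LT-HSC WT, and fell by 2.64 on the log2 scale. Thy1 had 19 and 24 counts in the LT-HSC KO libraries, against 110 and 108 in LT-HSC WT, and fell by 2.33. Id3 and Thy1 were thus lower in both LT-HSC KO libraries, and both stayed called with the background subtracted (adjusted p = 0.0106 for Id3 and 0.0123 for Thy1, edgeR). Over these 3 lists 14 genes rose and 12 fell, and once the background was subtracted 4 rose and 8 fell. Fewer genes could then be tested: 14, 8 and 15 in the lists, against 18, 9 and 18 before. Satb1, among those that fell after subtraction, had 64 counts in LT-HSC KO, where the density gives 73.4. The counts after subtraction are therefore not read as a turn in direction.

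Genes of other cells were also high in LT-HSC KO. Erythroid genes rose in 9 of 9, with summed levels of 2851 to 3737 CPM in LT-HSC KO, against 429 to 611 CPM in LT-HSC WT. Stromal and bone genes rose in 7 of 8 (491 to 692 CPM summed in LT-HSC KO, against 38.0 to 41.4 in LT-HSC WT, where Bglap and Cxcl12 were at 0), and B cell genes rose in 6 of 8 with 1 lower. With the background subtracted 9 of 9 erythroid and 6 of 7 stromal and bone genes were higher, while of 6 B cell genes 1 was higher and 2 were lower. Ebf1, among those lower, had been called higher before the subtraction. It had 292 counts in LT-HSC KO, where the density gives 295.5, so its fall follows from the subtraction and is not read as a result. Of 6 NK and innate lymphoid genes tested 1 rose and 2 fell: Il1rl1, the IL-33 receptor, rose by 3.80, and Nkg7, a granule protein of cytotoxic cells, fell by 3.08 and Klrb1c, an NK receptor, by 2.39 on the log2 scale. Prf1 was at 0 in all LT-HSC libraries. Over all genes tested in LT-HSC, 22.5% rose and 10.9% fell. The part of these other cells in the T cell lineage values was not tested.

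Between the WT populations, Cd2, Lck and Gata3 differed. Of the 7 genes found in both populations, 4 could be tested; in LT-HSC WT, Gata3 was higher and Cd2 and Lck were lower than in MPP WT, where 34.3% of all 14660 tested genes were called, 17.4% higher and 16.9% lower. Population is tied to cell input, depth and table, which cannot be told apart. Cd2 had 1 count over the LT-HSC WT libraries, against 426 over the MPP WT libraries, a ratio of 0.00546 with a 95% interval of 0.000138 to 0.0306 (adjusted p = 0.000429, edgeR). Lck was at 14.3 ± 2.28 CPM in LT-HSC WT and 32.0 ± 2.49 CPM in MPP WT (SD, n = 2 each), or -1.14 as a log2 fold change (SE 0.21, adjusted p = 0.00996). Gata3 was at 29.1 ± 1.71 CPM in LT-HSC WT and 12.7 ± 0.962 CPM in MPP WT, or 1.21 as a log2 fold change (SE 0.17, adjusted p = 0.00453). The libraries of the populations did not overlap for these 3 genes. Of the 7 genes, 1 lay higher and 4 lower in LT-HSC WT in this way, the low Cd3g and Cd8b1 included. Over all 17893 genes listed in both populations, 33.1% lay higher and 34.8% lower, so this is not read as a feature of these genes. Bcl11b had 2 and 12 counts in LT-HSC WT, against 9 and 16 in MPP WT, and its log2 fold change of 0.38 (SE 0.79, adjusted p = 0.736) turned to -1.44 without LT-HSC WT replicate 2. Cd8b1 had 1 count over LT-HSC WT, against 7 over MPP WT (ratio 0.332, 95% interval 0.00738 to 2.59), Cd3g had 0 against 5, and Cd8a had 0 in both, so no difference was detectable at this depth.

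The order of the 4 groups differed from gene to gene. Cd2 was at 4.38 ± 2.76 CPM in LT-HSC KO, 0.0913 ± 0.129 in LT-HSC WT, 25.5 in MPP KO and 17.8 in MPP WT, so both MPP groups lay above both LT-HSC groups. Lck stood in the order MPP KO, MPP WT, LT-HSC WT and LT-HSC KO, and neither pair of neighbours within a population passed the test. Gata3 ran the other way between populations, at 21.5 ± 2.63 CPM in LT-HSC KO, 29.1 in LT-HSC WT, 15.0 ± 0.997 in MPP KO and 12.7 in MPP WT. Bcl11b was highest in LT-HSC KO at 9.30 ± 0.848 CPM, against 1.39 ± 1.45 in LT-HSC WT, and was at 2.61 ± 0.186 CPM in MPP KO, against 1.04 ± 0.407 in MPP WT (SD, n = 2 in each group). In LT-HSC of both genotypes, and not in MPP, background would give most of the Bcl11b counts.

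**Figure D4:**
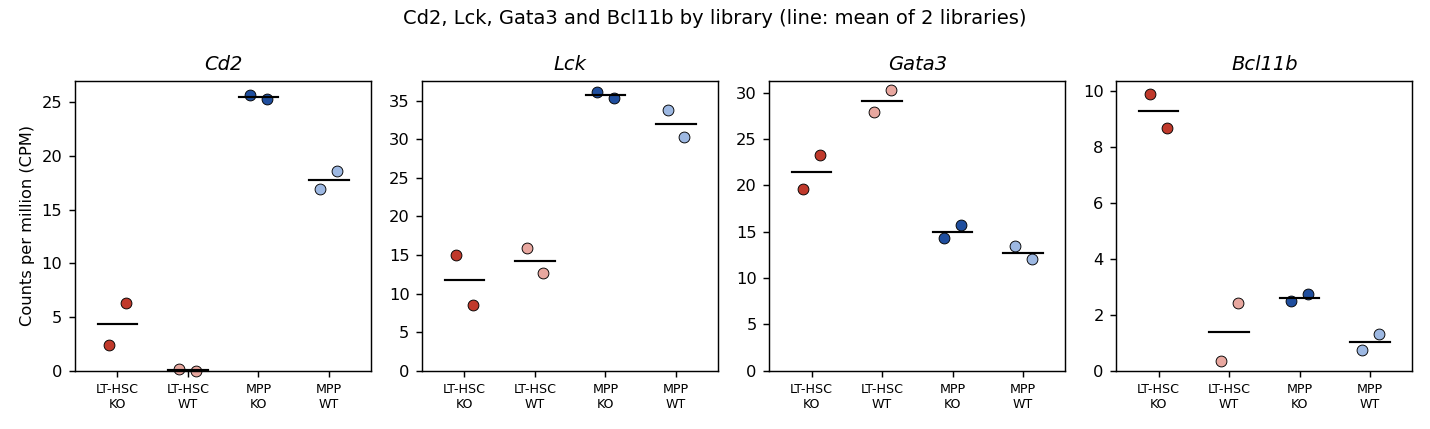
Counts-per-million (CPM, vertical axis, a scale of its own for each gene) of Cd2, Lck, Gata3 and Bcl11b in each library; points are libraries and lines the mean of 2 libraries. Cd2 and Lck are higher in MPP than in LT-HSC, Gata3 is higher in LT-HSC, and Bcl11b is highest in LT-HSC KO.

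The KO difference itself was compared between the populations in a fit over all 8 libraries, in which 6 of the 7 shared genes were tested and 22.1% of 16551 genes were called, 13.6% higher in LT-HSC and 8.5% lower. For Cd2 the KO difference was larger in LT-HSC than in MPP by 4.70 on the log2 scale (SE 1.00, adjusted p = 0.0147, edgeR), a fitted size that depends on the single LT-HSC WT count and ran from 3.82 to 7.66 when 1 library was left out. For Gata3 it was lower in LT-HSC by -0.76 (SE 0.23, adjusted p = 0.0443), with Gata3 below WT in both LT-HSC KO libraries and above WT in both MPP KO libraries. The Gata3 call was lost with library size only (adjusted p = 0.0756), with DESeq2 (0.0902), with the background subtracted (0.0609) and without any 1 library other than LT-HSC KO replicate 2, at 0.0102 to 0.178 over all alternatives. The difference did not pass for Bcl11b (1.38, SE 0.83, adjusted p = 0.269), Cd3g (3.01, SE 1.93, adjusted p = 0.304), Cd8b1 (0.94, SE 1.495, adjusted p = 0.696) or Lck (-0.53, SE 0.34, adjusted p = 0.303). The test for these 4 genes missed the threshold, which does not show that the KO difference is alike in LT-HSC and MPP.

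For the members with a mean of at least 50 counts per library in both tables, the most similar profiles over the 8 libraries were sought among 10271 genes. Gata3 was closest to Gpx4 (Pearson r = 0.988), Erc1 (0.988) and Nynrin (0.984), and Lck was closest to Calr (0.992), Pafah1b3 (0.987) and Pou2f2 (0.985). These values describe 8 libraries that share populations and depth.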

How the data were processed

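Poly(A) RNA of LT-HSC and MPP from Tet1 KO and WT transplants was sequenced as 50 bp paired-end reads. The submitters' processing notes name CASAVA, TopHat and the mm9 build; neither their versions, the program that counted reads nor the annotation is given in the sources used here. The authors deposited raw counts per Ensembl gene and library, 1 table per population, which were used as deposited, and all sample columns were matched by genotype and replicate (0 left over). The log2 fold change, log2 CPM, likelihood ratio score and p-value columns of the deposited tables are the authors' and were not used here.

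CPM is the count over the total of all listed genes. Counts were tested with edgeR 4.0.16 in R 4.3.3 (filterByExpr with a minimum count of 10, TMM, glmQLFit, glmQLFTest), over all genes of a comparison, with Benjamini-Hochberg adjustment and calls under 0.05. Standard errors are the fold change over the square root of the test statistic. Groups at 0 were given as a bound against 3 counts over the group; groups of 1 to 3 counts as a ratio with a 95% exact binomial interval. The background density is the median count per kb of gene span over 37 genes not expected in blood, times the span of a gene; it also served as a subtraction. The fit was tested on simulated data with known fold changes. These were modelled on genes with a mean of at least 10 counts, with 1 dispersion for all. Counts as low as those of Cd8a and Cd3d in MPP were not covered.

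Alternatives were other scalings (median of ratios, library size only), no filter, DESeq2 1.42.0, a replicate block, the subtraction, and leaving out each library; a fit that leaves a group with 1 library takes its spread from the other libraries. The members and lists were chosen with earlier results of these data known. Named genes were the 10 members, Tet1, at most 4 called genes per list and comparison by absolute fold change, and the 3 genes most like Gata3 and Lck; Trac, Trbc1, Trbc2, Zap70, Cd247 and Cd4 were chosen after their values were seen. A few genes meeting it are left unreported.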

Additional observations from a re-analysis of the deposited data

Results flagged for a closer look

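Cd2 was picked out because its KO difference was not the same in the 2 populations: the log2 fold change of KO over WT was larger in LT-HSC than in MPP by 4.70 (SE 1.00, adjusted p = 0.0147, edgeR over all 8 libraries). Leaving out 1 library gave 3.82 to 7.66, at an adjusted p of 0.0150 to 0.0450. It had 13 and 32 counts in the LT-HSC KO libraries, against 1 and 0 in LT-HSC WT, and 321 and 313 counts in MPP KO, against 202 and 224 in MPP WT; both KO libraries were higher in each population. The background density would give 9.11 of its 45 counts in LT-HSC KO.

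Gata3 was picked out for the opposite reason: its KO difference in LT-HSC was below that in MPP by -0.76 (SE 0.23, adjusted p = 0.0443, edgeR), lower in both LT-HSC KO libraries and higher in both MPP KO libraries. It passed in neither population alone (log2 fold change -0.44 in LT-HSC and 0.32 in MPP), and over the 14 alternatives the difference ran from -0.89 to -0.65 with an adjusted p of 0.0102 to 0.178.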

How the results depend on the processing

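Across the settings tried the fold changes of members kept their direction, except Lck in LT-HSC (-0.79 to 0.091 over the libraries left out, the last without LT-HSC KO replicate 2), Bcl11b between WT populations (-1.44 to 1.15, the first without LT-HSC WT replicate 2) and Cd8b1 in the population difference (-0.082 to 3.91, the first without LT-HSC KO replicate 1); the cause was not tested. With the background subtracted, LT-HSC KO had 1163 genes higher, 829 lower and 0 members called; the population difference had 925 genes higher (44.3% of its calls, against 61.6% in the main analysis) and 0 members lower. In MPP, library size only gave 609 genes higher and 643 lower (48.6% of calls higher, against 65.9%), no filter gave 397 higher, 178 lower and 1 member, and DESeq2 gave 2 members. In the population difference library size only and DESeq2 gave 0 members lower, with Gata3 at an unadjusted p under 0.05 in each. The replicate numbers are shared, and the correlation of replicate 1 minus replicate 2 over 11769 genes was 0.538 to 0.774 between groups; with 2 pairs this is a hint from the data only. The replicate block gave 4009 genes and 1 member lower in LT-HSC (Gata3, adjusted p = 0.0409); 3536 genes higher, 3698 lower and 9 members higher in MPP; 4038 higher and 3781 lower between WT populations; and 3633 higher and 3270 lower in the population difference. Leaving out 1 library gave 1946 to 4213 genes higher, 379 to 2543 lower and 1 to 3 members higher in LT-HSC, and 0 to 213 higher, 0 to 55 lower and 0 to 0 members in MPP. It gave 1288 to 3372 higher and 1176 to 3697 lower between WT populations, and 798 to 2521 higher, 334 to 1716 lower, 1 to 2 members higher and 0 to 1 lower in the population difference. The CD3, CD8 and Tcf7 counts are low enough that counting error limits them in every group.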
